A study of Rattus norvegicus with 6 samples.

Results

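Accessible chromatin sites (ACS) assigned to 10 genes of insulin and insulin-like growth factor (IGF) signalling were compared between pancreatic islet cells of adult rats and of pups at postnatal day 10 (P10). The genes were Igf2, Insr, Igf1r, Igf2r, Irs1, Irs2, Pik3r1, Akt1, Akt2 and Foxo1, and every ACS that the deposited table lists under one of these symbols was taken, whatever its value. This gave 163 ACS of 101603 distinct ACS in all. Each of the 163 is listed under 1 gene symbol. Accessibility was measured by ATAC-seq, in which the Tn5 transposase cuts and tags open DNA, and the table counts Tn5 integrations per ACS in each library. The Adult group held 3 libraries, numbered 4, 5 and 6, each from 1 male Sprague-Dawley rat of about 90 days. The P10 group held 3 libraries, numbered 1, 2 and 3, each from a mix of pups of 1 litter at day 10, of both sexes by the study's methods. Whole islets were dissociated in both groups, without sorting of a cell type. By the study's methods, pup pancreases were digested with collagenase by hand shaking. In adult rats the collagenase was injected into the pancreatic duct and digestion ran longer, in a warm bath. Age, sex, the way of islet isolation and the use of 1 rat or of pooled littermates therefore cannot be told apart in this comparison.

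Insulin and IGF2 bind the receptor tyrosine kinases INSR and IGF1R at the cell surface. The activated receptors phosphorylate the adaptors IRS1 and IRS2, which recruit phosphatidylinositol 3-kinase through its regulatory subunit p85alpha, the product of Pik3r1. The lipid made by this kinase brings AKT1 and AKT2 to the membrane, and AKT phosphorylates FOXO1 and keeps it out of the nucleus. IGF2R lacks kinase activity and removes IGF2 from the cell surface. In beta cells the pathway is known for its part in cell mass, survival and secretion.

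An ACS of the TSS class overlapped the annotated start of 4 members (Insr, Igf2r, Irs1 and Foxo1), so their promoters are shown. The sequences come from RefSeq on GRCr8, a later build than the Rn5 coordinates of the ACS, and each holds the 250 bases before the gene start, 5′ to 3′ on the gene's strand. Igf2r is on the minus strand in the annotation of the ACS and on the plus strand in GRCr8. No promoter sequence was matched to the sequence of an ACS. Capitals mark exact matches on either strand to any of 7 motifs. Forkhead factors were searched as TGTTTAC and AP-1 factors as TGACTCA. The cAMP response element was searched as TGACGTCA. GC boxes were searched as GGGCGG and E-boxes as CACGTG, the CCAAT box by the 5 letters of its name, and ETS factors by the letters CCGGAAG.
Insr promoter, chr12:6128804-6129053, minus strand: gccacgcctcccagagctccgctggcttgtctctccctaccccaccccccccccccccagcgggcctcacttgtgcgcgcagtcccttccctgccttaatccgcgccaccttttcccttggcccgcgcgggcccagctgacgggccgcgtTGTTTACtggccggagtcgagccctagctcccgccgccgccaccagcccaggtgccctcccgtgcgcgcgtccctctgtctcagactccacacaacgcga
Igf2r promoter, chr1:50526628-50526877, plus strand: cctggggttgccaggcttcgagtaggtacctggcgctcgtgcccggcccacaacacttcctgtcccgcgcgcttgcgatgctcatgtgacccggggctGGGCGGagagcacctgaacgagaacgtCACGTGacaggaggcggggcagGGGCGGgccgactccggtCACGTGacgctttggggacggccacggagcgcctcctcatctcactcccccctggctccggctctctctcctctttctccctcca
Irs1 promoter, chr9:91053960-91054209, minus strand: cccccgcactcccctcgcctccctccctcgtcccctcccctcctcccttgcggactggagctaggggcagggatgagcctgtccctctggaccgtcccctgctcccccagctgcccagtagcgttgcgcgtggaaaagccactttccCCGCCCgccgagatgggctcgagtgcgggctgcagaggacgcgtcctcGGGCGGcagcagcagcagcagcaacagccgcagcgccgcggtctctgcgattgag
Foxo1 promoter, chr2:138462724-138462973, plus strand: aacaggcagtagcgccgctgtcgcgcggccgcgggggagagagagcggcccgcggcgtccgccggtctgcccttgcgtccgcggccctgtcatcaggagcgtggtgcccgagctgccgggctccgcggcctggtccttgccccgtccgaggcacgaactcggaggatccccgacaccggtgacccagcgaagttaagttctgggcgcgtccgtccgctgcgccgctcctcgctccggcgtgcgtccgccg
In the Insr promoter the 1 match was the forkhead motif, the family of motifs that FOXO1 binds, with its first base 100 bases before the start. It was found in 3.21% of the 33469 rat promoters of the same length. The Igf2r promoter held 2 GC boxes and 2 E-boxes, and the Irs1 promoter 2 GC boxes. GC boxes were found in 30.5% and E-boxes in 5.59% of all promoters, and the motifs with no match in these 4 promoters in 4.05% (AP-1), 1.59% (cAMP response element), 34.0% (CCAAT box) and 7.27% (ETS). None of the motifs contains another. The Foxo1 promoter held none of the 7 motifs in this window and so has no capitals. Promoters of 9 of the 10 genes were in the table, Irs2 being the one without, and Igf2 had 2. Among the 10 sequences the median GC content was 69.4%, against 51.2% for all promoters. The sequences of the other members are not printed. A motif match here is a description of the letters and not a measured binding site.

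The Adult libraries held 7916919 to 11903909 integrations in ACS and the P10 libraries 13491534 to 21168463, so values of the P10 group are the more deeply counted. Library sizes were adjusted with edgeR's TMM factors, and levels are given as CPM, the counts relative to that adjusted size. The islet markers were present in both groups. ACS were listed for 7 of 8 beta cell genes (Ins1 and Ins2 among them, G6pc2 not), 5 of 5 alpha cell genes including Gcg, and 4 of 4 delta cell genes including Sst. Summed over its ACS, the beta cell list held 981 to 1155 CPM in Adult and 931 to 1232 CPM in P10, the alpha list 667 to 809 and 587 to 670 CPM, and the delta list 235 to 302 and 253 to 290 CPM. The endothelial list (6 of 6 genes) held 482 to 561 CPM in Adult and 439 to 465 CPM in P10. Adult and P10 ranges were 74.7 to 88.0 and 55.8 to 68.6 CPM for the immune list (4 of 6 genes, without Cd68 and Lyz2), and 411 to 472 and 402 to 414 CPM for the mesenchymal list (6 of 6). For exocrine cells they were 368 to 400 and 343 to 367 CPM in the acinar list (6 of 8 genes, without Cela1 and Cel), and 244 to 277 and 212 to 236 CPM in the duct list (4 of 6 genes). The proliferation list (4 of 6 genes, without Mki67 and Aurka) held 173 to 200 CPM in Adult and 179 to 198 CPM in P10. The endothelial, immune, acinar and duct sums were thus higher in every Adult library than in every P10 library, and their part in the results below was not tested.

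Of the 163 ACS, 26 were more accessible in Adult (Up) and 9 were less accessible (Down), at p under 0.05 and a false discovery rate under 0.2 in edgeR's quasi-likelihood test. These are 15.95% and 5.52% of the members' ACS, beside 12.6% Up and 6.64% Down of all ACS tested. At the same limits the paper reported the reverse balance over all ACS, with more Down than Up. The cause of this difference was not tested. The median log2 fold change, Adult over P10, was 0.10 over the members' ACS and -0.0075 over all ACS. Scaling by the study's own total of reads per library moved the median of all ACS to -0.83, so 3 members' ACS were then Up and 87 Down, and every direction given here is relative to the TMM scale. Calls lay far from gene starts. The table classes an ACS as TSS within 999 bp of a gene start, as proximal from 1001 to 9998 bp, and otherwise as distal, by the distance from the gene start to the first coordinate of the ACS. Distances in kb below are of this kind unless the nearest edge is named, and those in bp run from the gene start to the nearest edge, so an ACS can lie closer by its edge than its class says. Of the 140 distal ACS of the members, 25 were Up and 9 Down, while of their 23 TSS and proximal ACS 1 was Up and none was Down. Over all ACS, 14.0% of distal sites were Up and 6.47% Down, and 6.89% of TSS and proximal sites were Up and 7.30% Down. As the samples are bulk islet cells, a change in the share of a cell type and a change in accessibility per cell cannot be told apart.

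The 26 Up ACS were at a median level of 6.90 CPM over the 6 libraries and the 9 Down ACS at 2.57 CPM. Among all ACS these medians were 8.21 CPM for Up and 3.78 CPM for Down. In 21 of the 26 every Adult library was above every P10 library, and in 7 of the 9 every Adult library was below every P10 library. Among all ACS this held for 10631 of 12755 Up and 5553 of 6750 Down ACS. Non-overlapping groups were found with Adult higher in 26 of the 163 ACS and with Adult lower in 8, and in 13.8% and 10.9% of all ACS. With library sizes taken as plain column sums, 19 members' ACS were Up and 11 Down, and 10705 of all ACS were Up and 10917 Down, against 12755 and 6750 with TMM. Dropping Adult 4, P10 2 or P10 3 left 12, 14 and 14 Up ACS. Dropping Adult 4, Adult 6 or P10 2 left 4, 3 and 5 Down ACS. Calls made in each of the 6 fits that left out 1 library numbered 10 among the 26 Up and 1 among the 9 Down ACS. Among all ACS they numbered 6555 of 12755 Up and 1755 of 6750 Down, so a smaller share of the members' calls was kept. The members' counts are small, and this difference was not tested. In the sentences below, values by library are in the order Adult 4, 5, 6 and P10 1, 2, 3, fold changes are log2 of Adult over P10 with their standard error, and a call is named as lost where it failed in a fit without a library.

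**Figure D1:**
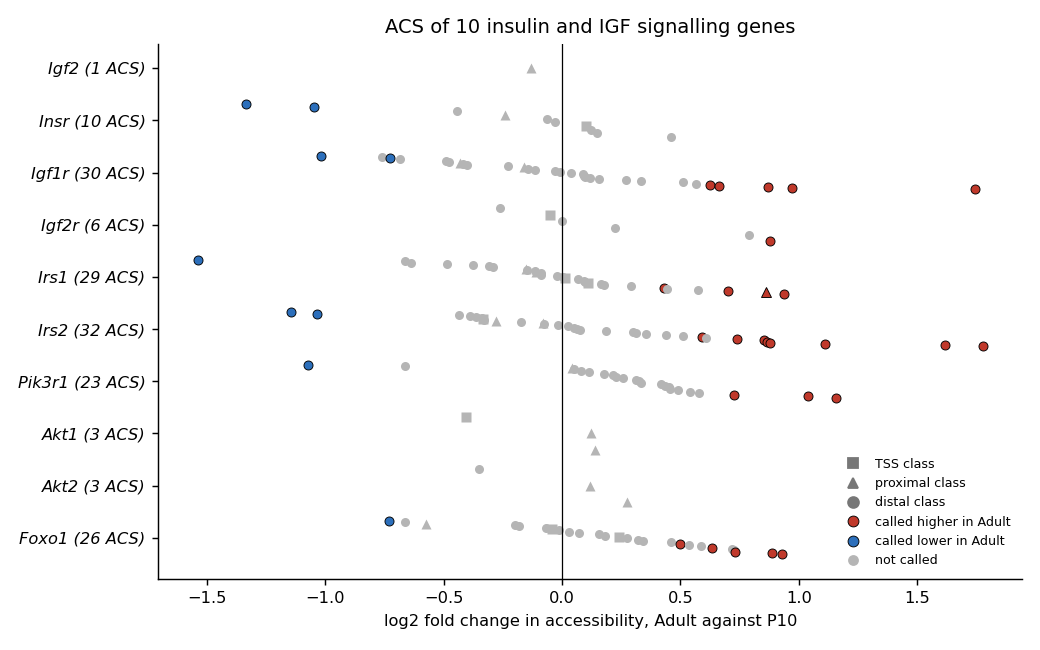
Each point is 1 of the 163 ACS, placed by gene (rows) and by its log2 fold change in accessibility, Adult against P10 (horizontal axis). Squares are TSS class, triangles proximal and circles distal ACS; red marks the 26 Up and blue the 9 Down ACS, and the squares all lie among the grey, uncalled points.

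No ACS at a gene start passed the test in any member. The 8 TSS-class ACS had log2 fold changes from -0.40 to 0.24, and calls were few over all 11055 TSS-class ACS too (2.74% Up and 7.76% Down). At the Insr start, the ACS at chr12:3988653-3989464 held 33.4, 29.3 and 18.4 CPM in Adult and 23.7, 24.96 and 27.9 CPM in P10 (0.10 ± 0.20, adjusted p = 0.84). The Igf2r start at chr1:51576979-51577501 held 5.603, 5.75 and 6.57 CPM in Adult and 6.18, 6.78 and 5.55 CPM in P10 (-0.05 ± 0.26, adjusted p = 0.948). Both genes' groups overlapped, and the 6 Igf2r values lay between 5.55 and 6.78 CPM. At the Irs1 start, the ACS at chr9:87834823-87835488 held 23.9, 12.8 and 21.7 CPM in Adult and 17.7, 19.7 and 16.7 CPM in P10 (0.11 ± 0.21, adjusted p = 0.84). A neighbour 261 bp upstream of that start, at chr9:87835509-87836126, held 42.5, 37.7 and 37.1 CPM in Adult and 40.4, 41.2 and 34.8 CPM in P10 (0.014 ± 0.17, adjusted p = 0.979). Of these ACS the second was the more accessible in each library. The Foxo1 start at chr2:161139475-161140337 held 34.2, 29.3 and 30.04 CPM in Adult and 35.1, 32.95 and 28.4 CPM in P10 (-0.043 ± 0.17, adjusted p = 0.931). A second TSS-class ACS inside Foxo1, at chr2:161140508-161140787, was far lower, with 3.89, 4.58 and 5.03 CPM in Adult and 3.95, 3.42 and 3.86 CPM in P10 (0.24 ± 0.29, adjusted p = 0.712). Adult and P10 libraries overlapped at both. Inside the Irs2 gene, 982 bp from its start, the ACS at chr16:83288167-83288556 held 14.7, 12.6 and 8.89 CPM in Adult and 20.8, 13.2 and 11.8 CPM in P10 (-0.33 ± 0.24, adjusted p = 0.466). The Akt1 TSS-class ACS at chr6:146243272-146243484, 289 bp inside the gene, held 3.43, 3.603 and 4.12 CPM in Adult and 5.95, 4.56 and 4.02 CPM in P10 (-0.40 ± 0.30, adjusted p = 0.488). Their fold changes were the 2 lowest of the class.

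Igf1r, Pik3r1, Igf2 and Akt2 had no TSS-class ACS, and their nearest ACS lay 389, 9947, 1385 and 3319 bp from the annotated start. For Igf1r this was a broad proximal ACS at chr1:129983717-129985415 with 57.8, 45.6 and 49.8 CPM in Adult and 62.4, 57.4 and 51.4 CPM in P10 (-0.16 ± 0.16, adjusted p = 0.639). The Irs2 ACS that ends 231 bp before the start, at chr16:83285773-83286954, was the most accessible ACS of that gene, with 69.8, 60.7 and 63.9 CPM in Adult and 83.6, 62.5 and 59.2 CPM in P10 (-0.08 ± 0.16, adjusted p = 0.843). Each had overlapping groups. Upstream of Pik3r1 the nearest and most accessible ACS, at chr2:50975164-50976359, held 60.6, 49.96 and 52.6 CPM in Adult and 56.1, 49.1 and 53.1 CPM in P10 (0.044 ± 0.16, adjusted p = 0.92). Per kilobase of ACS, the level nearest the start was highest for Irs2 (56.4 CPM per kb), followed by Pik3r1 (44.8), Foxo1 (36.7), Insr (32.4), Igf1r (31.8), Akt2 (29.6), Irs1 (28.1), Akt1 (20.1), Igf2 (15.8) and Igf2r (11.6). The ranges of the 6 libraries overlapped between neighbours in this order, except between Pik3r1 and Foxo1 and between Igf2 and Igf2r. The ranked ACS lie at unlike distances from the starts, up to 9947 bp for Pik3r1. The second TSS-class ACS of Irs1, 261 bp from the start and not ranked, held 63.0 CPM per kb. In none of the 10 genes did the ACS nearest the start separate Adult from P10.

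**Figure D2:**
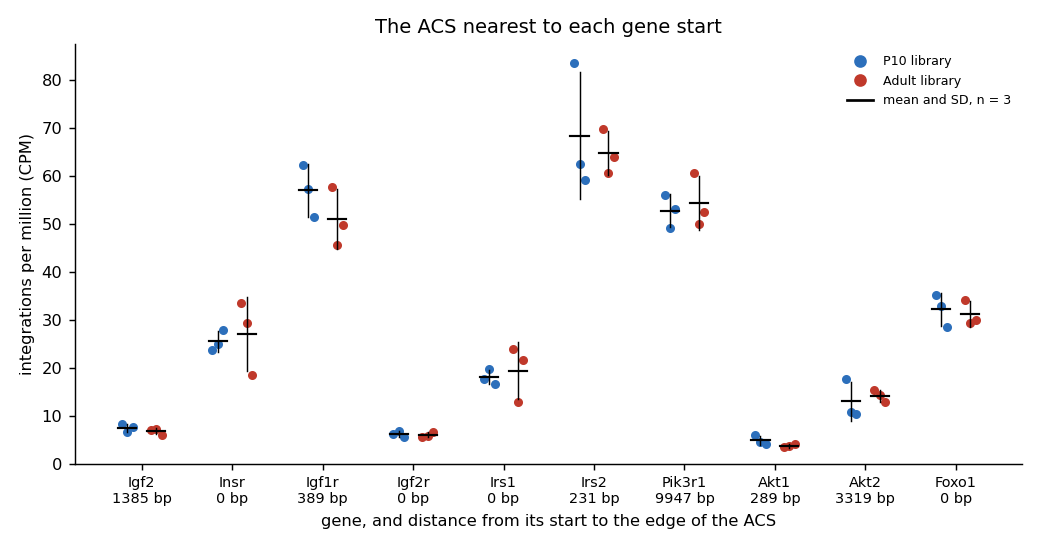
CPM per library (vertical axis) at the ACS nearest to the start of each gene, with the distance in bp from that start to the edge of the ACS under each name. Blue points are P10 and red points Adult libraries, bars are the mean and SD of 3 libraries, and the ranges of both groups overlap in each of the 10 genes.

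The ligand gene Igf2 had 1 ACS, a proximal one inside the gene at chr1:222731192-222731643. It held 7.05, 7.304 and 6.06 CPM in Adult and 8.23, 6.56 and 7.56 CPM in P10 (-0.13 ± 0.25, adjusted p = 0.831), with overlapping groups. Insr, the insulin receptor gene, had 10 ACS, of which none was Up and 2 were Down. Both Down ACS were inside the gene and at low level. The first, at chr12:3945442-3945803 and 43.7 kb from the start, held 2.53, 3.99 and 1.16 CPM in Adult and 4.602, 5.49 and 6.45 CPM in P10 (-1.05 ± 0.34, adjusted p = 0.0453), and the call was lost without Adult 6 (adjusted p 0.234). The second, at chr12:3961045-3961502, held 1.36, 2.14 and 0.645 CPM in Adult and 3.21, 6.21 and 1.96 CPM in P10 (-1.33 ± 0.44, adjusted p = 0.0533), and the call was lost without P10 2 (adjusted p 0.318). The Adult values were all below the P10 values at the first, and at the second Adult 5 was above P10 3. The other 8 ACS had log2 fold changes from -0.44 to 0.46. The highest of these belongs to the most accessible of all 163 ACS, inside Insr at chr12:3865655-3866169, which held 141, 255 and 64.2 CPM in Adult and 70.0, 119.8 and 146 CPM in P10 (0.46 ± 0.26, adjusted p = 0.323). It spread widely within Adult, from 64.2 to 255 CPM, and was not called, but without Adult 6 it was Up with a log2 fold change of 0.82 and an adjusted p of 0.00756, and without Adult 5 its direction turned (-0.12, adjusted p = 0.849).

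Igf1r, the type 1 IGF receptor gene, had 30 ACS, 22 of them inside the gene. Of the 30, 5 were Up and 2 Down, with a median log2 fold change of 0.013. The largest change was inside the gene at chr1:130137262-130137783, 151 kb from the start, with 23.7, 15.6 and 14.8 CPM in Adult and 5.48, 4.14 and 6.45 CPM in P10 (1.74 ± 0.24, adjusted p = 1.03e-05). The Adult mean was 3.37-fold the P10 mean there, the lowest Adult value was 14.8 CPM beside a highest P10 value of 6.45 CPM, and it was called in all 6 fits without 1 library. A second ACS inside the gene, at chr1:130084803-130085145, held 9.31, 7.499 and 9.28 CPM in Adult and 5.25, 2.996 and 4.76 CPM in P10 (0.97 ± 0.27, adjusted p = 0.0168), and it was called in all 6 fits without 1 library. The most accessible Up ACS lay 86.6 kb upstream, at chr1:129899242-129900292, with 79.6, 57.8 and 59.6 CPM in Adult and 51.8, 36.2 and 36.3 CPM in P10 (0.66 ± 0.17, adjusted p = 0.0123), and it was called in all 6 fits without 1 library. In all 3 the groups were separate. At 2 more ACS inside the gene the groups overlapped. The one at chr1:130065878-130066200 held 19.1, 17.7 and 13.4 CPM in Adult and 14.6, 10.6 and 7.401 CPM in P10 (0.63 ± 0.23, adjusted p = 0.0938), and the call was lost without Adult 4, Adult 5, P10 2 or P10 3 (adjusted p up to 0.416). The one at chr1:130099386-130099628 held 2.98, 2.92 and 2.06 CPM in Adult and 2.18, 1.28 and 0.846 CPM in P10 (0.87 ± 0.39, adjusted p = 0.176), and the call was lost without Adult 4, Adult 5, P10 2 or P10 3 (adjusted p up to 0.501). The Down ACS inside the gene at chr1:130120208-130120427 held 0.994, 0.682 and 0.902 CPM in Adult and 1.58, 1.93 and 1.797 CPM in P10 (-1.02 ± 0.43, adjusted p = 0.15), and the call was lost without Adult 4, Adult 5, Adult 6, P10 2 or P10 3 (adjusted p up to 0.322). The Down ACS past the gene end, at chr1:130313596-130313864, held 2.53, 3.701 and 1.55 CPM in Adult and 3.95, 5.21 and 4.23 CPM in P10 (-0.73 ± 0.33, adjusted p = 0.194), and the call was lost without Adult 4, Adult 6, P10 2 or P10 3 (adjusted p up to 0.517). Both Down ACS were separate between groups at levels under 6 CPM. The proximal ACS at the start, described above, was the most accessible of the gene. Uncalled ACS of Igf1r ran from -0.76 to 0.57 in log2 fold change.

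Igf2r, whose product clears IGF2, had 6 ACS, of which 1 was Up. This ACS, inside the gene at chr1:51565962-51566310 and 11.2 kb from the start, held 15.8, 12.7 and 7.61 CPM in Adult and 8.32, 6.06 and 5.45 CPM in P10 (0.88 ± 0.26, adjusted p = 0.0256), and the call was lost without Adult 4 (adjusted p 0.238). Adult 4 and Adult 5 were above all P10 libraries and Adult 6 was not. The most accessible ACS of the gene, at chr1:51547089-51547525, held 13.9, 14.5 and 6.703 CPM in Adult and 14.5, 11.2 and 9.94 CPM in P10 (0.0011 ± 0.24, adjusted p = 0.999) and did not separate the groups.

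Irs1 and Irs2, the adaptor genes, had 29 and 32 ACS. For Irs1, 4 ACS were Up and 1 was Down, and the median log2 fold change was 0.0028. The 1 Up ACS of the proximal class among all members was 9.56 kb upstream of Irs1, at chr9:87844812-87845053. It held 8.22, 8.47 and 7.35 CPM in Adult and 5.21, 4.85 and 3.22 CPM in P10 (0.86 ± 0.27, adjusted p = 0.036), and it was called in all 6 fits without 1 library. The other called ACS lay far past the gene end. At chr9:87065499-87066146, 769.8 kb from the start, the values were 22.8, 19.6 and 23.8 CPM in Adult and 10.8, 11.3 and 12.4 CPM in P10 (0.94 ± 0.20, adjusted p = 0.00191), and it was called in all 6 fits without 1 library. Adult was above P10 in every library at both of these ACS. The most accessible ACS of Irs1, at chr9:87504378-87504934, held 67.95, 51.1 and 70.0 CPM in Adult and 46.9, 44.7 and 48.3 CPM in P10 (0.43 ± 0.16, adjusted p = 0.0948), and the call was lost without Adult 4, Adult 6 or P10 2 (adjusted p up to 0.324). At chr9:87172509-87172928 the values were 4.699, 3.603 and 5.67 CPM in Adult and 2.93, 2.64 and 2.85 CPM in P10 (0.70 ± 0.31, adjusted p = 0.168), and the call was lost without Adult 4, Adult 6, P10 2 or P10 3 (adjusted p up to 0.443). The groups were again separate at both. The Down ACS, at chr9:87429684-87430162, held 1.54, 0.584 and 1.805 CPM in Adult and 2.65, 5.06 and 3.75 CPM in P10 (-1.54 ± 0.41, adjusted p = 0.0135), and it was called in all 6 fits without 1 library. Its fold change was the lowest of the 163, and it lay between the Up ACS at 331 and 769.8 kb from the start. The 24 uncalled ACS of Irs1 ran from -0.66 to 0.58.

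Irs2 had the most ACS and the most calls of the 10 genes, with 8 Up and 2 Down. Of the 8 Up ACS, 7 lay past the gene end, between 41.3 and 199.96 kb from the start. The nearest of these, at chr16:83328459-83328714, held 17.4, 15.1 and 12.2 CPM in Adult and 5.996, 2.71 and 4.07 CPM in P10 (1.78 ± 0.26, adjusted p = 2.01e-05), and it was called in all 6 fits without 1 library. Its Adult mean was 3.50-fold the P10 mean, the largest ratio among the members. At chr16:83448938-83449652, 162 kb from the start, the values were 32.1, 30.7 and 36.6 CPM in Adult and 14.9, 8.34 and 8.67 CPM in P10 (1.62 ± 0.21, adjusted p = 5.04e-06), and it was called in all 6 fits without 1 library. This ACS had the smallest adjusted p of the 163, and its Adult values were at least 30.7 CPM where no P10 value was above 14.9 CPM. Nearer to the gene, the ACS at chr16:83443221-83443647 held 9.76, 10.3 and 8.25 CPM in Adult and 5.903, 4.14 and 5.29 CPM in P10 (0.88 ± 0.25, adjusted p = 0.0218), and it was called in all 6 fits without 1 library. At chr16:83378405-83378820, 91.2 kb from the start, 9.04, 6.43 and 6.32 CPM in Adult and 3.86, 2.28 and 3.81 CPM in P10 were counted (1.11 ± 0.29, adjusted p = 0.0104), and it was called in all 6 fits without 1 library. Each of these 4 ACS separated the groups. The remaining 3 past the gene end had larger adjusted p-values. The ACS at chr16:83360512-83360866 held 7.50, 7.11 and 7.09 CPM in Adult and 6.14, 4.49 and 3.65 CPM in P10 (0.59 ± 0.27, adjusted p = 0.191), and the call was lost without Adult 4, Adult 5, Adult 6, P10 2 or P10 3 (adjusted p up to 0.493). At chr16:83478655-83478961 the values were 6.69, 9.45 and 5.16 CPM in Adult and 5.48, 3.21 and 2.91 CPM in P10 (0.87 ± 0.30, adjusted p = 0.0641), and the call was lost without Adult 5, P10 2 or P10 3 (adjusted p up to 0.336). At chr16:83487141-83487379 they were 3.52, 2.14 and 2.71 CPM in Adult and 1.95, 1.36 and 1.27 CPM in P10 (0.85 ± 0.36, adjusted p = 0.156), and the call was lost without Adult 4, Adult 6, P10 2 or P10 3 (adjusted p up to 0.479). Groups overlapped at the second of these and not at the other two. The Up ACS upstream, at chr16:83140049-83140439 and 147 kb from the start, held 14.5, 9.45 and 9.93 CPM in Adult and 7.11, 7.204 and 6.13 CPM in P10 (0.74 ± 0.24, adjusted p = 0.0472), and the call was lost without Adult 4 (adjusted p 0.337). Its groups were separate. The Down ACS inside the gene, at chr16:83298806-83299069, held 1.27, 1.36 and 0.902 CPM in Adult and 4.18, 2.35 and 1.27 CPM in P10 (-1.14 ± 0.45, adjusted p = 0.118), and the call was lost without Adult 4, Adult 5, Adult 6 or P10 1 (adjusted p up to 0.531). The Down ACS past the gene end, at chr16:83395436-83395713, held 0.633, 1.85 and 1.29 CPM in Adult and 2.42, 3.07 and 2.27 CPM in P10 (-1.03 ± 0.41, adjusted p = 0.118), and the call was lost without Adult 4, Adult 6 or P10 2 (adjusted p up to 0.465). Only the latter separated the groups, at under 4 CPM. Nearest gene is a rule of distance, so a distal ACS need not act on the gene it is listed under.

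**Figure D3:**
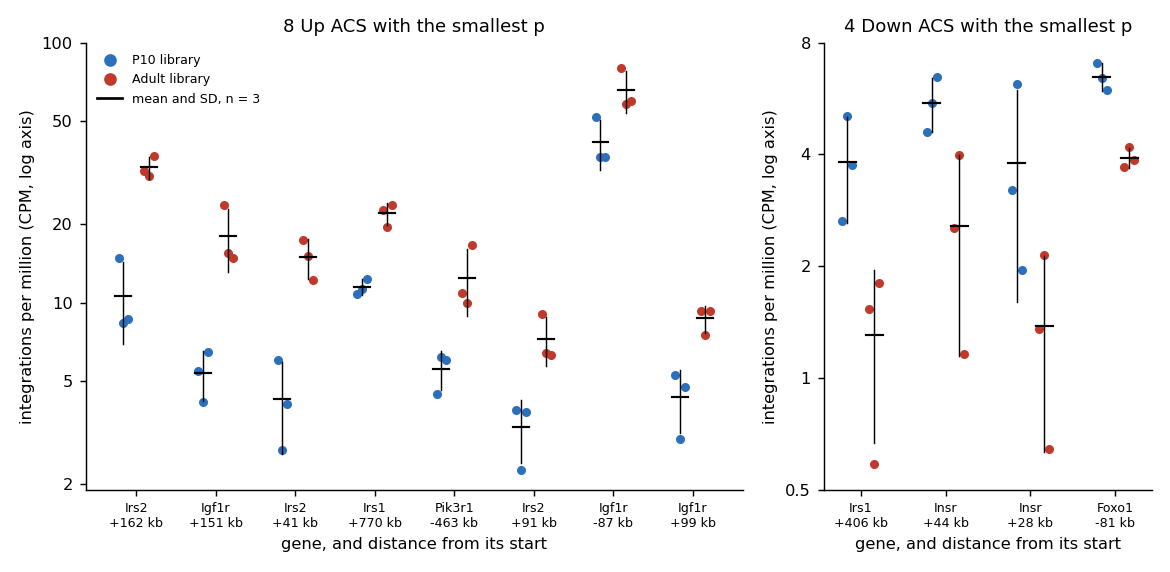
CPM per library on log axes for the members' ACS with the smallest p, 8 of them Up (left) and 4 Down (right), each under its gene and its signed distance from the gene start in kb. Red points are Adult and blue points P10 libraries, with the mean and SD of 3; the Up ACS reach 79.6 CPM, and the Down ACS at most 7.07 CPM.

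Pik3r1, which encodes the regulatory subunit of the kinase, had 23 ACS, and 21 of them had a positive log2 fold change, with a median of 0.33 (18 were positive with column sums and 2 with the study's library totals). Relative to the median of all ACS on the same scale, 21 lay above it on each of these scales, and 20 with cyclic loess. Of the 23, 3 were Up and 1 was Down. The Up ACS were all upstream of the gene. At chr2:51428375-51428708, 463 kb from the start, the values were 10.9, 9.93 and 16.6 CPM in Adult and 4.46, 6.21 and 6.03 CPM in P10 (1.16 ± 0.25, adjusted p = 0.00241), and it was called in all 6 fits without 1 library. At chr2:51041187-51041572, 75.97 kb away, they were 3.98, 6.82 and 9.15 CPM in Adult and 2.84, 3.85 and 2.91 CPM in P10 (1.04 ± 0.31, adjusted p = 0.0286), and the call was lost without Adult 6 (adjusted p 0.211). At chr2:51077397-51078012 they were 16.7, 9.35 and 13.4 CPM in Adult and 9.25, 8.27 and 6.34 CPM in P10 (0.73 ± 0.24, adjusted p = 0.0542), and the call was lost without Adult 4 or P10 3 (adjusted p up to 0.35). Adult was above P10 in every library at all 3. The Down ACS, at chr2:51156685-51156914, held 1.36, 0.682 and 0.902 CPM in Adult and 2.42, 1.85 and 1.96 CPM in P10 (-1.07 ± 0.42, adjusted p = 0.113), and the call was lost without Adult 5, Adult 6 or P10 1 (adjusted p up to 0.313). It lay between the Up ACS at 463 and 112 kb, and the groups were separate at levels under 3 CPM. The 19 uncalled ACS of Pik3r1 ran from -0.66 to 0.58 in log2 fold change.

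Akt1 and Akt2, the kinase genes, had 3 ACS each and no call. Their log2 fold changes ran from -0.40 to 0.14 for Akt1 and from -0.35 to 0.28 for Akt2. The 2 proximal ACS of Akt1 are inside the gene, and the more accessible one, at chr6:146240511-146240783, held 6.597, 4.77 and 4.51 CPM in Adult and 6.97, 5.21 and 2.48 CPM in P10 (0.12 ± 0.32, adjusted p = 0.882). The most accessible ACS of Akt2 lay upstream, its nearest edge 9.49 kb and its first coordinate 10.7 kb from the gene start, at chr1:85617242-85618459, with 35.8, 39.9 and 26.9 CPM in Adult and 47.4, 47.0 and 37.01 CPM in P10 (-0.35 ± 0.18, adjusted p = 0.259). Its P10 libraries were at 37.0 to 47.4 CPM and its Adult libraries at 26.9 to 39.9 CPM, which overlap. It was Down with column sums (log2 fold change -0.44, adjusted p = 0.105), with cyclic loess (-0.42, adjusted p = 0.129), without Adult 5 (-0.47, adjusted p = 0.131) and without P10 3 (-0.47, adjusted p = 0.179). The Akt2 ACS nearest the start, at chr1:85631265-85631722, held 15.4, 14.2 and 12.9 CPM in Adult and 17.8, 10.8 and 10.3 CPM in P10 (0.12 ± 0.23, adjusted p = 0.832).

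Foxo1, which encodes the forkhead transcription factor at the end of the pathway, had 26 ACS, 5 of them Up and 1 Down. The median log2 fold change was 0.26, and 18 of the 26 were positive (16 with column sums and 2 with the study's library totals). On each of these scales 18 lay above the median of all ACS, and 17 with cyclic loess. One Up ACS was inside the gene, at chr2:161196052-161196265, with 4.699, 3.701 and 2.58 CPM in Adult and 2.42, 1.498 and 1.85 CPM in P10 (0.93 ± 0.34, adjusted p = 0.0884), and the call was lost without Adult 4, P10 2 or P10 3 (adjusted p up to 0.371). The others were past the gene end. The pair nearest to it held 6.42, 3.21 and 3.996 CPM in Adult and 2.74, 2.35 and 2.33 CPM in P10 at chr2:161269123-161269342 (0.89 ± 0.32, adjusted p = 0.0858) and 5.78, 5.94 and 6.32 CPM in Adult and 3.95, 4.42 and 3.28 CPM in P10 at chr2:161270761-161271154 (0.64 ± 0.28, adjusted p = 0.169). The call of the former was lost without Adult 4, P10 2 or P10 3 (adjusted p up to 0.511), and that of the latter was lost without Adult 4, Adult 5, Adult 6, P10 2 or P10 3 (adjusted p up to 0.397). All 3 of these ACS separated the groups. At chr2:161406467-161407075, 266 kb from the start, the values were 15.8, 13.5 and 13.7 CPM in Adult and 13.2, 8.49 and 8.51 CPM in P10 (0.50 ± 0.23, adjusted p = 0.186), and the call was lost without Adult 4, Adult 5, Adult 6, P10 2 or P10 3 (adjusted p up to 0.506). At chr2:161507785-161508057, 367 kb from the start, they were 6.24, 7.21 and 3.61 CPM in Adult and 4.46, 3.21 and 2.696 CPM in P10 (0.73 ± 0.30, adjusted p = 0.143), and the call was lost without Adult 4, Adult 5, P10 2 or P10 3 (adjusted p up to 0.42). Groups overlapped at the last. The Down ACS, 81.4 kb upstream at chr2:161058918-161059398, held 3.71, 4.19 and 3.87 CPM in Adult and 7.07, 6.42 and 5.97 CPM in P10 (-0.73 ± 0.28, adjusted p = 0.104), and the call was lost without Adult 4 or Adult 6 (adjusted p up to 0.266). Adult and P10 values were separate there. No Foxo1 call was kept in all 6 fits without 1 library, and the TSS-class ACS described above was the most accessible of the gene.

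**Figure D4:**
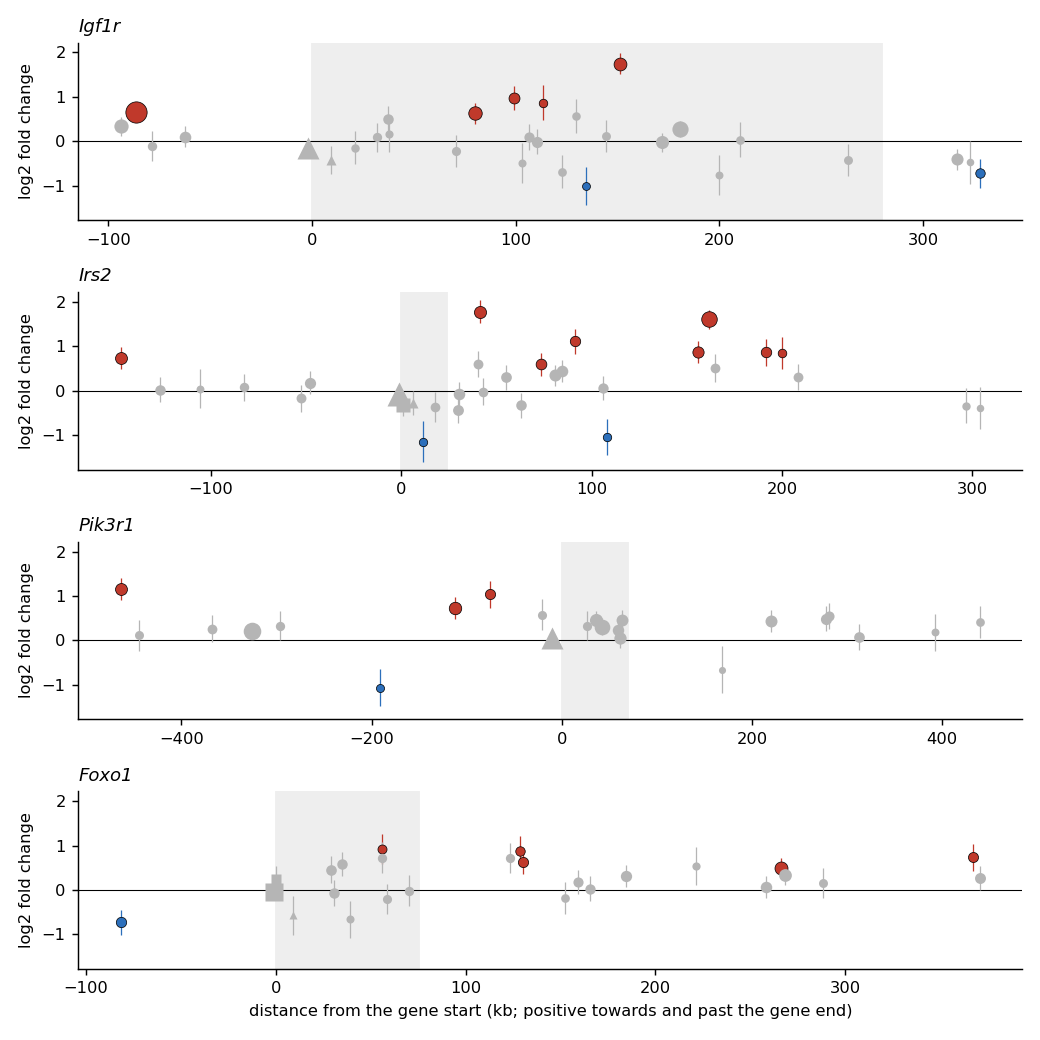
Log2 fold change with its standard error for every ACS of Igf1r, Irs2, Pik3r1 and Foxo1 against distance from the gene start in kb, with the annotated gene shaded. Red points are Up, blue Down and grey uncalled ACS, squares TSS class, triangles proximal and circles distal, and larger points have a higher mean CPM; the 7 Up ACS past the end of Irs2 stand right of its shaded gene.

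Summed over all its ACS, 1 of the 10 genes was called. Of the 13834 genes with an ACS, 10.6% were Up and 7.51% Down on such sums. CPM of the sums are relative to library sizes and TMM factors of the gene sums. They are therefore not on the scale of the CPM of single ACS. The Pik3r1 sum was 254, 244 and 278 CPM in Adult and 217, 207 and 208 CPM in P10, with separate groups (log2 fold change 0.30 ± 0.11 (SE), adjusted p = 0.133). This call was lost without Adult 4, Adult 6, P10 2 or P10 3 (adjusted p up to 0.424), and with column sums and with cyclic loess. The Irs2 sum was 288, 297 and 293 CPM in Adult and 287, 217 and 219 CPM in P10 (0.28 ± 0.13 (SE), adjusted p = 0.207). It was Up in DESeq2 (adjusted p = 0.158), in limma-voom (0.170) and in edgeR without P10 1 (0.0294). The Igf1r sum was 319, 303 and 304 CPM in Adult and 278, 261 and 250.2 CPM in P10 (0.23 ± 0.12 (SE), adjusted p = 0.253), and it was Up in DESeq2 (adjusted p = 0.155). Adult was above P10 in every library for both Irs2 and Igf1r. The Foxo1 sum was 167, 175 and 178 CPM against 170.3, 137 and 137 CPM (0.22 ± 0.12 (SE), adjusted p = 0.27). Sums of Igf2, Insr, Igf2r, Irs1, Akt1 and Akt2 overlapped between groups, with log2 fold changes from -0.16 to 0.25. In Insr, the single most accessible ACS made up 47.6% to 73.8% of the sum, so much of the spread of the sum is that of this ACS. Without it the other Insr ACS summed, on the CPM scale of single ACS, to 94.1, 90.8 and 56.5 in Adult. In P10 they summed to 77.0, 86.1 and 84.8, and Adult 6 was again the lowest. Without P10 1, the sums of Igf1r, Igf2r, Irs2, Pik3r1 and Foxo1 were Up, and without Adult 6 that of Insr was Up (log2 fold change 0.55, adjusted p = 0.181). Without Adult 5 the Insr sum turned to -0.17 (adjusted p = 0.679).

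**Figure D5:**
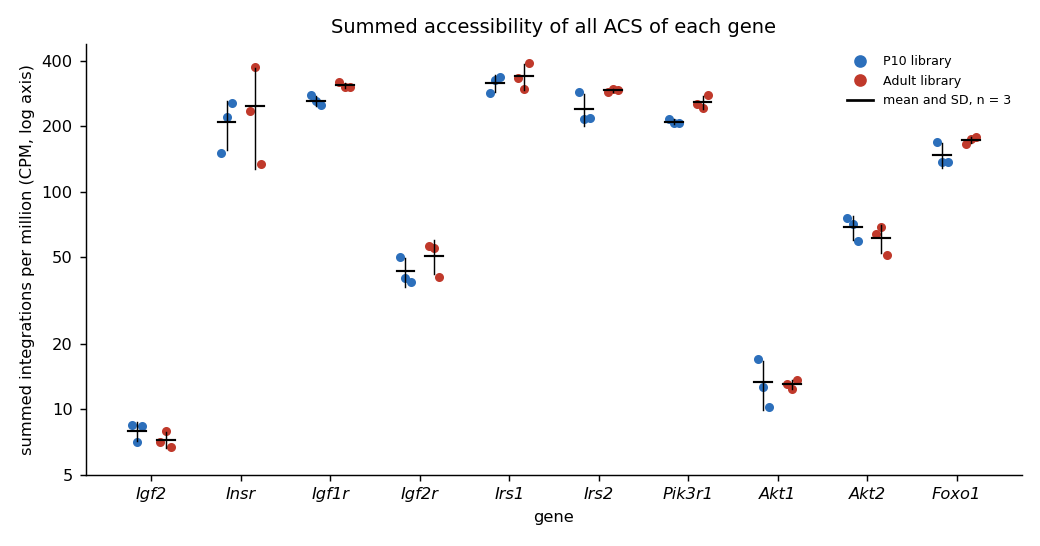
Summed CPM of all ACS of each gene per library on a log axis, with P10 in blue and Adult in red and the mean and SD of 3 libraries. Igf1r, Irs2 and Pik3r1 have every Adult library above every P10 library, and Insr has the widest spread, from 134 to 377 CPM in Adult.

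A list of 53 other genes of the same pathway, from ligands and binding proteins to AKT substrates, was described in the same way. ACS were listed for 46 of them, 433 in all. Of these, 59 (13.6%) were Up and 48 (11.1%) Down, with a median log2 fold change of -0.09, against 26 Up and 9 Down with a median of 0.10 for the members. Of all ACS tested, 12.6% were Up and 6.64% Down. At the 37 TSS-class ACS of the list 10 were Down and none was Up, beside 7.76% Down and 2.74% Up of all TSS-class ACS and no call at the members' 8. Of the 10 Down calls 3 were made in all 6 fits without 1 library, beside 200 of 858 over all TSS-class ACS. With column sums the list had 50 Up and 70 Down ACS. Without Adult 4 it had 37 Up and 30 Down, and without Adult 6 or P10 2 it had 30 and 28 Down. Of the Up ACS, the smallest p belonged to one listed under Igfbp7, an IGF-binding protein gene, at chr14:32268553-32268786 (2.32 ± 0.34, adjusted p = 1.93e-05). Next were an ACS inside Phlpp1, which encodes an AKT phosphatase, at chr13:31507375-31507926 (1.49 ± 0.25, adjusted p = 0.00011), and one listed under Grb14, an inhibitory receptor adaptor, at chr3:57859066-57859400 (1.59 ± 0.28, adjusted p = 0.000276). Those under Igfbp7 and Grb14 lay far upstream of the gene starts, at 32803851 and 57695025. By library these 3 ACS held 9.13, 4.29 and 8.64 CPM in Adult and 1.302, 1.498 and 1.59 CPM in P10 for Igfbp7, 15.5, 15.8 and 11.1 CPM in Adult and 6.32, 3.71 and 4.92 CPM in P10 for Phlpp1 and 11.9, 6.33 and 9.93 CPM in Adult and 3.21, 2.57 and 3.49 CPM in P10 for Grb14. Each separated the groups. The Down ACS with the smallest p were inside Pde3b, a phosphodiesterase gene downstream of AKT, at chr1:190935296-190935799 (-2.26 ± 0.38, adjusted p = 0.000143), and upstream of the insulin gene Ins1 at chr1:280015928-280016296 (-2.26 ± 0.48, adjusted p = 0.00177) and chr1:279997459-279998124 (-0.96 ± 0.21, adjusted p = 0.00201). They held 1.08, 1.46 and 1.68 CPM in Adult and 9.25, 4.21 and 6.03 CPM in P10 for Pde3b, 0.271, 0.779 and 0.773 CPM in Adult and 2.09, 3.71 and 2.96 CPM in P10 for the first Ins1 ACS and 10.9, 10.7 and 9.797 CPM in Adult and 21.3, 19.5 and 20.5 CPM in P10 for the second. Adult was below P10 in every library at all 3. All 6 were called in every fit without 1 library. On sums, 10.6% of all genes with an ACS were Up and 7.51% Down. Of the list's 46 genes 15 were called, 6 Up (Igfbp5, Gab1, Pik3ca, Phlpp1, Mtor and Sgk1) and 9 Down (Ins1, Ins2, Igfbp1, Igfbp3, Grb2, Sh2b1, Sos1, Pik3r2 and Rps6kb1). The calls of Ins1, Igfbp1, Grb2 and Sh2b1 were made in all 6 fits without 1 library, and the other 11, all 6 Up genes among them, were lost in 2 to 4 of the fits (adjusted p up to 0.568). Up and Down sums numbered 1 and 5 without Adult 4, 2 and 6 without Adult 6, 0 and 4 without P10 2, and 3 and 8 without P10 3. The Ins1 sum was 203 ± 14.1 CPM in Adult and 305 ± 46.0 CPM in P10 (SD, n = 3), and the Ins2 sum 31.1 ± 2.85 and 40.4 ± 6.23 CPM, with Adult lower at both (edgeR adjusted p = 0.0117 and 0.144). The Ins1 call was made in all 6 fits without 1 library, and the Ins2 call was lost without Adult 4, Adult 6, P10 1 or P10 2 (adjusted p up to 0.355). Of the 28 ACS listed under Ins1, 26 were distal, 1 was proximal and 1 of the TSS class, with 2 Up and 9 Down. Of the 4 listed under Ins2, 3 were distal. These sums are therefore mostly of distal ACS and do not measure accessibility at the insulin genes alone.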

How the data were processed

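Chromatin accessibility of rat islet cells was measured by ATAC-seq in 3 Adult and 3 P10 libraries. Reads were mapped by the authors to the Rn5 build (BWA 0.7.13), mitochondrial and poorly mapped reads were discarded, and peaks were called with MACS2 2.1.1 after joining the libraries of an age. The authors then deposited, for each ACS, its nearest gene and the raw count of integrations in every library. Whether PCR duplicates were removed is not stated in the sources used here, so errors cover the counts as they stand. The deposited table also gives the authors' own log2 fold change, p-value and FDR per ACS, which were not used. Distances in base pairs and ACS classes are as deposited by the authors.

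Repeated listings were collapsed, from 101941 entries to 101603 ACS. Counts were fitted across all ACS with edgeR 4.0.16 (glmQLFit and glmQLFTest, TMM factors, no filter) in R 4.3.3, with Benjamini-Hochberg adjustment over all ACS and calls at p under 0.05 and FDR under 0.2, the limits of the study. The standard error is the log2 fold change over the square root of F. The same test was run on counts summed over the ACS of each of 13834 genes. Alternatives were column sums, median-of-ratios factors, the study's library totals, cyclic loess with limma-voom (limma 3.58.1), limma-voom with TMM, the older form of the edgeR test, DESeq2 1.42.0, a filter on low counts (at least 10 in enough libraries and 15 in total), an FDR under 0.05, every listed entry, and each library left out. On simulated counts for this comparison over 101603 ACS, with 200 of them changed 2-fold, 40.5% of the changed ACS were called and 21 unchanged ones. The simulated dispersions followed the fitted trend only. In the data 12755 ACS were Up and 6750 Down, far more than were changed in the simulation. The Benjamini-Hochberg limit depends on the share changed, so the 40.5% does not give the share of real changes found here. The libraries held 7916919 to 21168463 integrations in ACS.

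The 10 genes, the pathway and marker lists and the motifs were chosen with earlier results of these data known. The name of 1 gene of the marker lists is not reported here. Values by library are given for each member's TSS-class ACS, each called ACS, each member's most accessible ACS and the ACS nearest each start (the last added after the values were seen), and for the 3 Up and 3 Down ACS of the other pathway genes with the smallest p. Replicate numbers differ between the groups and pair no samples. Nothing states that libraries of a group are more than separate rats or litters, so p-values rest on the spread between these 3 libraries of each group. In edgeR the spread at each ACS is also drawn toward that of all ACS, so a p-value is not set by the values at 1 ACS alone.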

Additional observations from a re-analysis of the deposited data

How the results depend on the processing

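The members' 26 Up and 9 Down ACS became 19 and 11 with column sums, 3 and 87 with the study's library totals, and 13 and 2 at an FDR under 0.05. The other scalings, tools and filters left 21 to 28 Up and 8 or 9 Down. Leaving out 1 library gave 12 to 36 Up and 3 to 8 Down. For the pathway list (59 Up, 48 Down) the study's totals gave 2 and 273, an FDR under 0.05 gave 37 and 14, and leaving out 1 library gave 37 to 66 Up and 28 to 47 Down. Over all ACS (12755 Up, 6750 Down), Down rose to 10917 with column sums. The study's totals gave 1114 Up and 62465 Down, an FDR under 0.05 gave 7508 and 1943, and leaving out 1 library gave 8794 to 13961 Up and 4042 to 8211 Down, with 4319, 4495 and 4042 Down without Adult 4, Adult 6 and P10 2. Of the members' sums, 1 was called in the reported fit, none with column sums, cyclic loess or an FDR under 0.05, 2 with limma-voom, 3 with DESeq2, 8 with the study's totals, and 0 to 5 with 1 library left out. In the reported edgeR fit 41 of the 163 ACS had an unadjusted p under 0.05.

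Of the values given by name, and among the alternatives tried, directions of called differences turned only with the study's library totals. On that scale the log2 fold changes of ACS uncalled and positive with TMM and then Down were -0.70 and -0.73 at the starts of Insr and Irs1, -0.82 beside the Irs1 start, -0.83 inside Igf2r, -0.80 upstream of Pik3r1 and -0.75 inside Akt2. Those of Up ACS whose direction turned were -0.20 and -0.23 in Igf1r, -0.13 and -0.41 in Irs1, -0.084 and -0.25 in Irs2, -0.12 in Pik3r1, and -0.19, -0.36 and -0.099 in Foxo1. Named ACS uncalled and negative with TMM were also Down there, from -1.25 in Akt1 to -0.88 at the Igf2r start. The sums of Igf1r, Irs1, Irs2, Pik3r1 and Foxo1 were at -0.61, -0.72, -0.59, -0.55 and -0.64. Those of Igf2, Akt1 and Akt2, negative with TMM, were at -0.96, -0.90 and -0.99. All ACS shifted with them, to a median of -0.83, and 101 of the members' 163 ACS lay above that median, against 100 above the median with TMM. The cause of the shift was not tested. Depth limits the low ACS most. The median standard error over the members was 0.29, and the Down calls rest on ACS of a few CPM.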
